A study of Mus musculus with 12 samples.

Results

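Femoral bone marrow of mice made leucopenic with cyclophosphamide was compared with marrow of untreated mice of the same series, across all genes with enough counts to test. The comparison took the model group and the normal group, 6 of the 12 libraries of the series. The series sequenced total bone marrow cells of the femur from male ICR mice, which are outbred, 3 per group in 4 groups. Model mice were injected with 80 mg/kg of cyclophosphamide daily on days 5 to 7, that is on 3 days, and took saline as vehicle by mouth. Normal mice received saline without cyclophosphamide. The other groups received the same cyclophosphamide with the herbal granule QJSB or with leucogen, and are used below only where stated. Each library came from a separate mouse, and the marrow was taken whole, without sorting of cell types.

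Cyclophosphamide is a prodrug that the liver activates and that crosslinks DNA, so that dividing cells are lost first. Bone marrow makes red cells, granulocytes, monocytes, platelets and B cells from a small pool of stem and progenitor cells, and most of its cells divide. Aldehyde dehydrogenases break down the active form of the drug, and stem cells are rich in them. Neutrophils pass from promyelocytes, which make the primary granules, to later cells that make the secondary and tertiary granules.

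The 6 libraries held 13279282 to 16922274 counts, and 14134 to 14791 genes had at least 10 counts in a library. On the first principal component of log2 CPM (read counts scaled to a common library size), which held 79.1% of the variance, the normal libraries lay between -76.9 and -75.5 and the model libraries between 60.6 and 93.8. The model mice differed more from each other than the normal mice did. The median SD of log2 CPM within a group was 0.282 in model and 0.145 in normal, and 11052 of the 14752 genes tested (74.9%) had the larger SD in model. Between 3.55 and 4.30% of genes were more than 2-fold apart in pairs of normal mice, against 8.83 to 11.1% in pairs of model mice. Between a normal and a model mouse the range was 24.8 to 30.7%. Globins, Mpo, Ltf and Rag1, which mark red cell precursors, promyelocytes, late neutrophils and B cell precursors, were all well detected in normal marrow. Gm26917 and Gm42418, which lie side by side on chromosome 17 where RefSeq places the 18S ribosomal RNA pseudogene Rn18s-rs5, took 1.72 to 2.29% of the counts in normal and 3.24 to 5.32% in model. Their part in the other results was not tested.

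Of the 14752 genes tested, 5171 (35.1%) were called, which means a change of more than 1.5-fold with an adjusted p under 0.05 in edgeR's quasi-likelihood test. Model had 2368 genes (16.1%) called higher and 2803 (19.0%) called lower than normal, so that 45.8% of the calls were higher. With libraries scaled to their total counts, 3024 genes were higher and 2346 lower, or 56.3% higher, and the median log2 difference of all genes was 0.14 in place of 0.02. The large changes were mostly falls. More than 4-fold, 244 genes rose and 1051 fell, and more than 32-fold, 11 rose and 267 fell. Protein-coding genes were balanced, with 2173 higher and 2185 lower, whereas long noncoding genes had 140 higher and 444 lower. Of 122 genes and segments of immunoglobulins and T cell receptors, 120 were lower and 0 higher. In 67 genes with a mean of at least 50 counts in normal, each model library held at most 3 counts, and 29 of these were immunoglobulin segments. Only 5 genes had the opposite pattern, Saa3, Cfb, Tcp11x2, A730085K08Rik and Gm9752. Past the cutoff of the study's methods, with the same fold and an unadjusted P under 0.05, lay 5670 genes (38.4%).

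**Figure D1:**
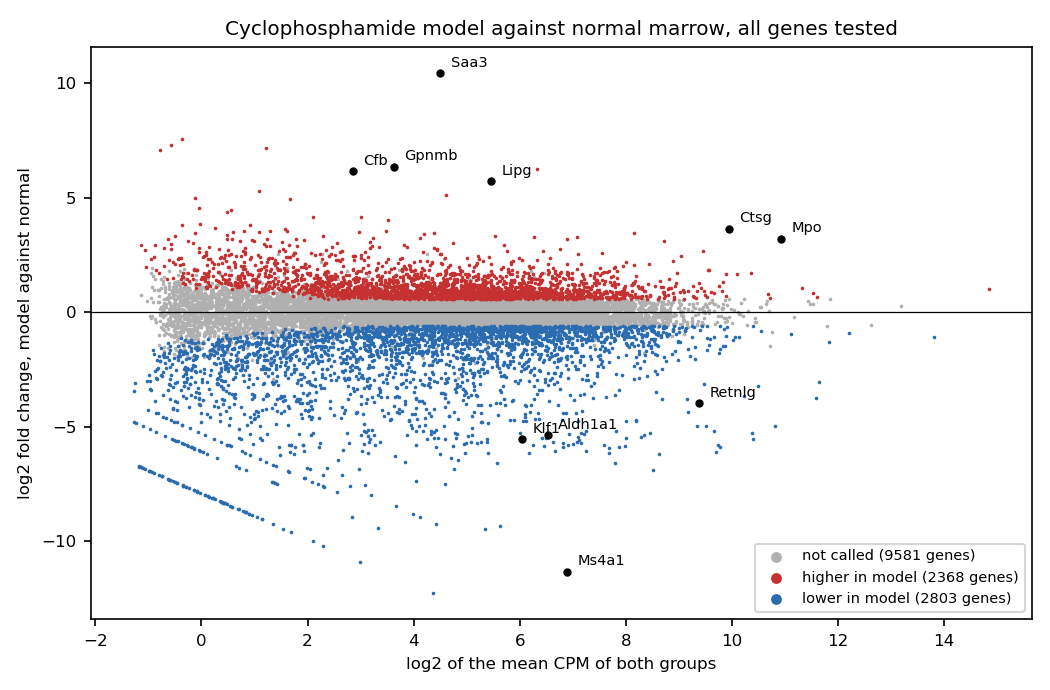
Each point is a gene tested, with the log2 of the mean CPM of both groups on the x axis and the log2 fold change of model over normal on the y axis, and called genes are coloured by direction. The 2803 genes called lower reach much further from 0 than the 2368 called higher: 267 against 11 lie beyond 32-fold.

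Genes of the red cell lineage were lower in model without exception. All 33 erythroid genes tested were called lower (100% against 19.0% of all genes tested), with a median log2 fold change of -4.96. Their summed share of counts was 3.28, 3.01 and 3.55% in the normal mice and 0.353, 0.121 and 0.103% in the model mice (exact permutation p = 0.1, two-sided, the smallest that 3 against 3 can give). In whole marrow, fewer cells of a type and less of its RNA per cell cannot be told apart. Klf1 (ENSMUSG00000054191, chr8:84901928-84905295), the transcription factor that switches on red cell genes, had 129, 137 and 123 CPM in normal and 5.79, 1.46 and 0.946 in model, a log2 fold change of -5.54 ± 0.62 (SE; edgeR adjusted p = 0.000763). Epor, the receptor for erythropoietin, went from 43.0, 48.7 and 55.6 CPM to 4.20, 1.24 and 0.769. In both genes the groups lay far apart, and model 1 kept more than model 2 and model 3. Alas2, the first enzyme of heme synthesis in red cells, had 1540, 1530 and 1650 CPM in normal and 107, 13.5 and 9.58 in model. Hbb-bs, an adult beta-globin, had 6910, 3810 and 6470 CPM against 1060, 126 and 87.2, a log2 fold change of -3.75 ± 1.09 (edgeR adjusted p = 0.0373). With this spread in model, the call of Hbb-bs was lost without normal 1, normal 2, normal 3, model 2 or model 3 (edgeR adjusted p from 0.0514 to 0.0914). The smallest fall of the list was that of Nfe2, a factor shared with megakaryocytes, from 141, 204 and 233 CPM to 109, 87.3 and 126 (log2 fold change -0.84). Gata1 fell by 3.98 on the log2 scale and Tfrc, the transferrin receptor, by 3.22.

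GATA factors, which drive this lineage, bind the letters AGATAA. These letters stood on either strand within 250 bases before the RefSeq start of 7 of the 22 erythroid genes with a promoter in the table (31.8%), against 10.3% of all 27025 promoters. The share was larger among genes of basophils and mast cells (6 of 10) and smaller in the other lists with promoters. For Alas2 (chrX:150547267-150547416, plus strand) and Epor (chr9:21963577-21963726, minus strand) the last 150 bases before the start in GRCm38.p6 are shown, 5′ to 3′, since both genes fell and hold the letters. Capitals mark the match, here read on the opposite strand as TTATCT.
Alas2: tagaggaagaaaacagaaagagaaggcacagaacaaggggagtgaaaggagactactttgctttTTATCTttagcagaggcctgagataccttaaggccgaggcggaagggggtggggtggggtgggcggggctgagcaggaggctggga
Epor: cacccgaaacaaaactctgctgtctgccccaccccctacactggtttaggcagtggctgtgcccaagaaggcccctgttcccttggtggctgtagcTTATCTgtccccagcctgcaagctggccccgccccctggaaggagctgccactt
The match began 86 bases before the start in Alas2 and 54 bases before it in Epor. A match of letters is a description and does not show binding.

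**Figure D2:**
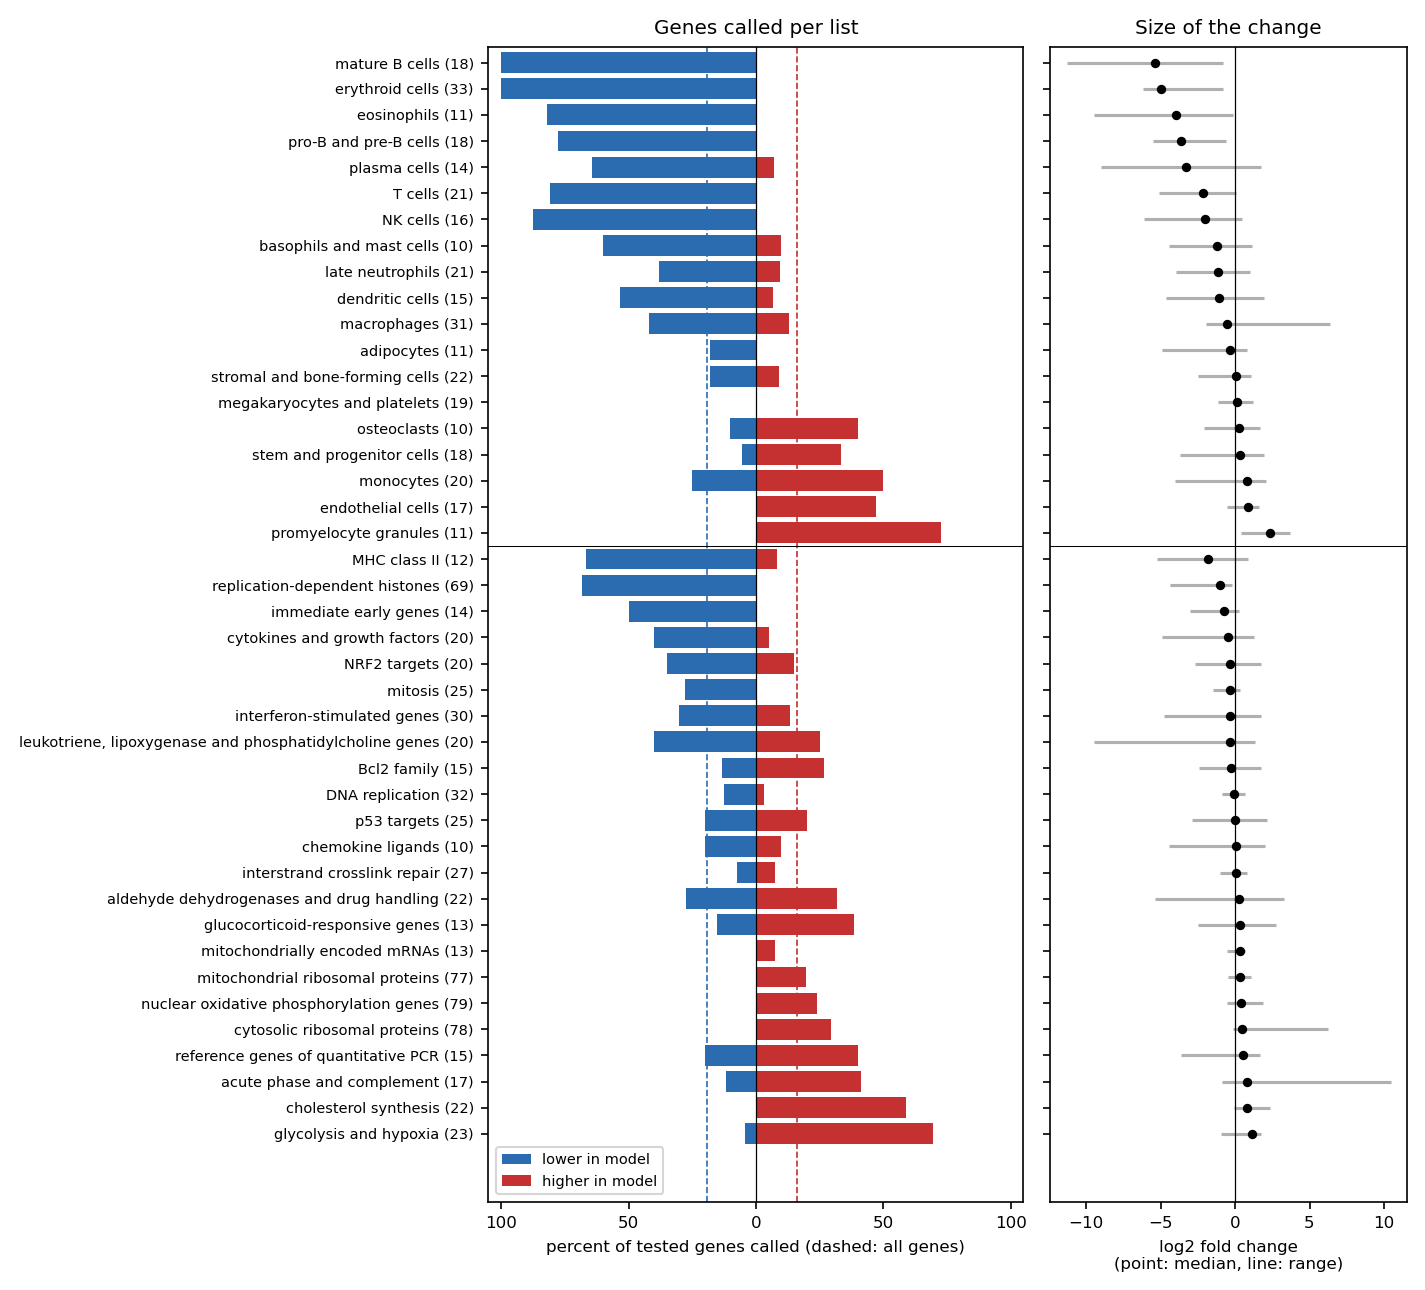
Each row is a gene list with its number of tested genes; bars give the percent of them called lower (left) and higher (right) in model, with dashed lines at the 19.0 and 16.1% of all genes tested, and the right panel gives the median (point) and range (line) of the log2 fold changes. The erythroid and mature B cell bars reach 100% lower, and the promyelocyte granule bar reaches 72.7% higher.

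Most genes of the B lineage were lower. All 18 mature B cell genes tested (100%) and 14 of 18 genes of pro-B and pre-B cells (77.8%) were called lower, against 19.0% of all genes tested. In both lists 0 were higher, against 16.1% of all genes, and the medians were -5.39 and -3.66. Mature B genes took 0.244 to 0.262% of counts in normal and 0.0207 to 0.0312% in model. Pax5, the factor that fixes B cell identity, had 293, 288 and 284 CPM in normal and 16.4, 4.91 and 0.355 in model (log2 fold change -5.31, edgeR adjusted p = 0.0103). Ebf1, which acts before Pax5, had 46.2, 13.8 and 4.14 CPM against 576, 562 and 556. Rag1, which cuts DNA for receptor rearrangement, had 397, 277 and 254 CPM in normal and 52.9, 15 and 1.30 in model. Rag1 was called (log2 fold change -3.74 ± 1.12, edgeR adjusted p = 0.0417), but not without normal 1, normal 2, normal 3 or model 2 (edgeR adjusted p from 0.0727 to 0.105). Igll1, part of the surrogate light chain of pre-B cells, spread from 17.7 CPM in model 1 to 0.296 in model 3 against 29.7 to 37.2 in normal. It did not pass the test (log2 fold change -2.22, edgeR adjusted p = 0.151), and did so without model 1 (-4.22, edgeR adjusted p = 0.0101). Dntt, which adds bases at receptor joints in pro-B cells, had 82.0, 65.6 and 55.4 CPM in normal and 87.5, 28.9 and 14 in model, so that the groups overlapped (edgeR adjusted p = 0.456). Without model 1, all 18 genes of pro-B and pre-B cells were called lower. The count was 10 without normal 1, normal 2 or model 2, 11 without normal 3 and 14 without model 3. It was also 10 without the filter on low counts.

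Immunoglobulin segments followed the same direction. All 93 V segments tested, of 350 listed, were called lower, and together they took 0.0364 to 0.0446% of counts in normal and 0.000295 to 0.00149% in model. Reads of V segments can fit several near-identical segments, so the sum is firmer than a single segment. Ighm, the constant part of IgM, had 1090, 1060 and 1040 CPM against 132, 57.0 and 45.4. Of 14 plasma cell genes 9 were lower (64.3% against 19.0% of all genes tested) and 1 higher (7.14% against 16.1%), with a median of -3.27 (2 higher without model 2). The share of counts of the plasma cell list was not lower, with 0.0369, 0.0267 and 0.0278% in normal and 0.0372, 0.0348 and 0.0541% in model (exact permutation p = 0.2), and its groups overlapped. The gene that rose was Xbp1, a secretory factor also used by other cells, from 93.2, 87.5 and 83.4 CPM to 233, 246 and 409 (log2 fold change 1.75). Igha, the IgA heavy chain, had 5.66, 10.5 and 20.7 CPM in normal and 0.828, 0.586 and 0.296 in model.

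T cell and NK cell genes were at low levels in both groups and fell in model. Of 21 T cell genes 17 were lower (81%) and of 16 NK cell genes 14 were lower (87.5%), against 19.0% of all genes tested, with 0 higher and medians of -2.17 and -2.05. The T cell list dropped to 11 lower without normal 2 and to 11 without model 2. Cd3d, a chain of the T cell receptor complex, had 15.3, 17.1 and 18.4 CPM in normal and 1.24, 2.64 and 2.72 in model (log2 fold change -2.95 ± 0.30, edgeR adjusted p = 0.000155). Cd3e, another chain, had only 1.86, 4.36 and 4.71 CPM against 1.24, 0.220 and 0, and its call (edgeR adjusted p = 0.0411) was lost without normal 1, normal 2, normal 3 or model 2 (edgeR adjusted p from 0.0556 to 0.120). Cd4 fell least of these, from 6.48, 8.86 and 11.6 CPM to 5.32, 4.32 and 4.79 (log2 fold change -0.90, edgeR adjusted p = 0.0222), and lost its call without normal 2, normal 3 or model 2 (edgeR adjusted p from 0.0599 to 0.103). Ncr1, the NK receptor NKp46, had 10.6, 12.3 and 13.8 CPM against 1.89, 1.68 and 0.355 (log2 fold change -3.23 ± 0.47, edgeR adjusted p = 0.00107). Cd2, an adhesion molecule of T and NK cells, had 18.3, 20 and 15.7 CPM against 1.01, 0.220 and 0.237.

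Eosinophil genes fell strongly as well. Of 11 tested, 9 were lower (81.8% against 19.0%) and 0 higher, with a median of -3.98, and their share of counts went from 0.164 to 0.202% in normal to 0.00807 to 0.0226% in model. Ccr3, the eotaxin receptor, had 41.6, 49.2 and 47.7 CPM in normal and 2.07, 0.879 and 1.36 in model (log2 fold change -4.98, edgeR adjusted p = 1.05e-05). Prg2, the major basic protein of the granules, had 1270, 1010 and 1020 CPM against 82.8, 51.0 and 27.7. Epx, eosinophil peroxidase, had 264, 178 and 193 CPM against 47.5, 22.1 and 17.4. The groups were far apart for all of these. Siglecf, a surface lectin of eosinophils, overlapped between groups, with 16.8, 17.6 and 18.8 CPM in normal and 12, 20.4 and 15 in model. Among 10 genes of basophils and mast cells 6 were lower (60% against 19.0%) and 1, Il6ra, was higher (10% against 16.1%).

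Neutrophil genes divided by stage. Of 11 genes of promyelocyte granules 8 rose (72.7% against 16.1% of all genes tested) and 0 fell, with a median of 2.36, and the list took 0.115 to 0.145% of counts in normal and 0.859 to 1.10% in model (exact permutation p = 0.1). Mpo (ENSMUSG00000009350, chr11:87793581-87804413), the myeloperoxidase of primary granules, had 426, 350 and 352 CPM in normal and 3310, 2390 and 4830 in model (log2 fold change 3.22 ± 0.27, edgeR adjusted p = 6.24e-05). Ctsg, cathepsin G of the same granules, had 171, 148 and 114 CPM against 1430, 2180 and 1880 (log2 fold change 3.66 ± 0.23, edgeR adjusted p = 1.56e-05). Elane, neutrophil elastase, had 229, 172 and 174 CPM against 1200, 866 and 1600. Each model mouse exceeded each normal mouse severalfold for Mpo, Ctsg and Elane. Prtn3 rose by 3.46, Ms4a3 by 3.10 and the factor Gfi1 by 2.12 on the log2 scale. Cebpe, the factor that turns promyelocytes to secondary granules, did not pass the test, with 62.8, 57.2 and 53.9 CPM in normal and 45.5, 79.0 and 98.8 in model.

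Genes of late neutrophils went lower or differed between the model mice. Of 21 tested 8 were lower (38.1% against 19.0%) and 2 higher (9.52% against 16.1%), with a median of -1.13. Retnlg, a resistin-like protein of mature neutrophils, had 1250, 1320 and 1200 CPM in normal and 7.57, 200 and 36.9 in model (log2 fold change -3.95, edgeR adjusted p = 0.0382). Mmp9, the tertiary granule gelatinase, had 574, 561 and 643 CPM against 21.3, 147 and 89.4. Ltf, lactoferrin of secondary granules, had 2440, 2510 and 2500 CPM against 316, 1420 and 968. The groups of Ltf did not overlap, but it missed the threshold (log2 fold change -1.46, edgeR adjusted p = 0.0514). Ltf passed it without model 1 (-1.05, edgeR adjusted p = 0.00323) or without model 2 (-1.94, edgeR adjusted p = 0.0243). With all 6 libraries it passed by DESeq2 (-1.47, DESeq2 adjusted p = 0.000628), with FPKM (-1.59, limma adjusted p = 0.0326) and with at least 10 counts in every library (-1.49, edgeR adjusted p = 0.045). Cxcr2, the chemokine receptor of mature neutrophils, had 25.2 CPM in model 1 and 106 and 148 in the others, against 243, 251 and 247 in normal (edgeR adjusted p = 0.0942, and 0.00302 without model 1). S100a8, a calcium-binding protein abundant in neutrophils, had 1770 CPM in model 1 but 8990 in model 2, so that its groups overlapped. Hp, haptoglobin, and Ltb4r1, a leukotriene B4 receptor, were the members that rose, by 1.00 and 0.76 on the log2 scale. Without model 1 the list had 4 higher and 11 lower, 5 were lower without normal 1 or without normal 2, and 1 was higher without each of the 5 other libraries.

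**Figure D3:**
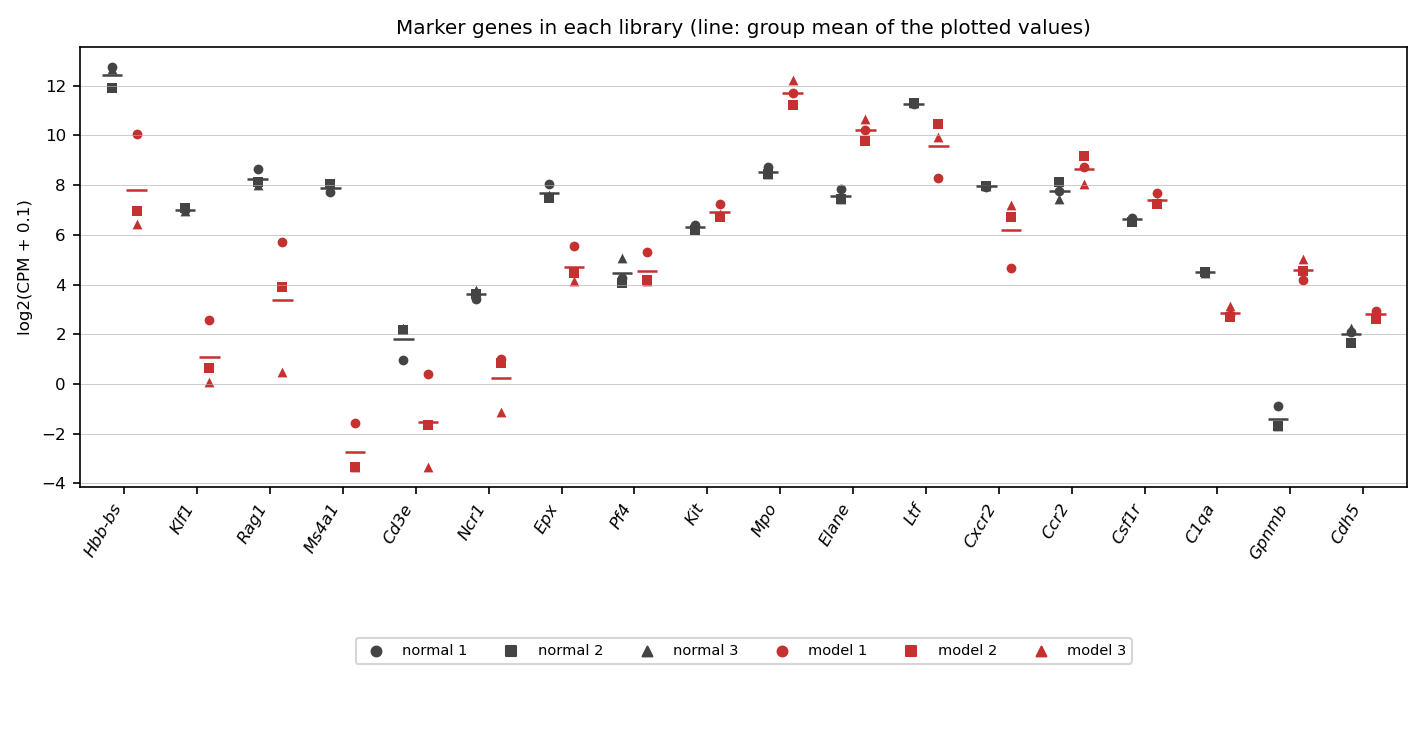
Points show single mice, by group, for genes that mark cell types of the marrow, with log2(CPM + 0.1) on the y axis and lines at the group means. Red cell, B cell and eosinophil markers such as Klf1, Ms4a1 and Epx lie lower in each model mouse, and Mpo lies higher.

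Monocyte genes were mixed. Of 20 tested, 10 rose (50% against 16.1%) and 5 fell (25% against 19.0%, and 3 genes without normal 3). The list's share of counts overlapped between groups (0.714 to 0.870% in normal, 0.630 to 1.29% in model). F13a1, coagulation factor XIII of classical monocytes, rose from 540, 535 and 479 CPM to 2230, 1410 and 1400 (log2 fold change 1.70, edgeR adjusted p = 0.000355). Csf1r, the receptor for the monocyte growth factor, rose from 102, 92.5 and 101 CPM to 205, 150 and 160. Ccl9, a chemokine made by myeloid cells, had 82.6, 95.9 and 86.1 CPM against 386, 411 and 265. Ccr2, which lets monocytes leave the marrow, was called higher (log2 fold change 0.92, edgeR adjusted p = 0.0391), although normal 2 with 280 CPM exceeded model 3 with 264. Its call was lost without normal 1, normal 3, model 1 or model 2 (edgeR adjusted p from 0.0716 to 0.110). Markers of the nonclassical monocytes, Treml4 and Nr4a1, fell by 1.65 and 1.09 on the log2 scale. Slamf7, found on several leucocytes, fell from 87.0, 80.7 and 76.6 CPM to 7.86, 4.83 and 2.07.

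Of 31 macrophage genes 13 fell (41.9% against 19.0% of all genes tested) and 4 rose (12.9% against 16.1%), and 7 rose without model 2. C1qa, a complement subunit made by resident macrophages, had 22.4, 22.9 and 21.8 CPM in normal and 6.80, 6.37 and 8.70 in model (log2 fold change -1.61 ± 0.18, edgeR adjusted p = 0.000237). Timd4, a receptor for dying cells on resident macrophages, had 7.15, 6.89 and 7.09 CPM against 2.13, 2.27 and 1.12, and Hmox1 and Slc40a1, which handle heme and export iron, fell by 1.43 and 1.14 on the log2 scale. Trem2, a lipid receptor of macrophages, rose from 1.94, 2.88 and 3.44 CPM to 12.7, 17 and 15.1. Ctsl, a lysosomal protease, rose from 22.8, 22.1 and 22.8 CPM to 54.7, 62.9 and 39.0. Adgre1, which encodes F4/80, did not pass the test (log2 fold change -0.17). Of 15 dendritic cell genes 8 fell (53.3%) and 1, Flt3, rose. Among 12 genes of MHC class II presentation 8 fell (66.7%) and Ctss, a protease also in the monocyte list, rose. Ciita, which switches on MHC class II, had 36.5, 42.4 and 50.2 CPM against 5.32, 6.44 and 3.61 (log2 fold change -3.07 ± 0.24, edgeR adjusted p = 5.06e-05), and H2-Ob, typical of B cells, had 37.0, 37.4 and 47.3 CPM against 2.07, 0.513 and 0.592.

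Stem and progenitor genes rose more often than they fell. Of 18 tested, 6 rose (33.3% against 16.1%) and 1, the erythroid factor Tal1, fell (5.56% against 19.0%). The count rested on single libraries: 3 rose and 4 fell without model 1, and 3 rose with any 1 of the normal mice left out. The list's share of counts was 0.124, 0.127 and 0.12% in normal and 0.149, 0.102 and 0.106% in model (exact permutation p = 0.9). Flt3, the receptor of early lymphoid and myeloid progenitors, had 25.7, 28.5 and 38.2 CPM in normal and 177, 83.5 and 89.0 in model (log2 fold change 1.92, edgeR adjusted p = 0.00258). Hoxa9, a homeobox factor of progenitors, had 6.03, 5.63 and 4.0 CPM against 17.2, 14.8 and 15.7 (edgeR adjusted p = 0.000562). Kit, the stem cell factor receptor, had 85.2, 73.6 and 82.8 CPM against 152, 106 and 114. Its difference lay close to the fold cutoff (log2 fold change 0.62 ± 0.16, edgeR adjusted p = 0.0145), and it was not called without model 1 (0.46) or without normal 2 (edgeR adjusted p = 0.0684). Cd34, a surface protein of progenitors and endothelium, had 20.3, 25.5 and 24.2 CPM in normal and 56.8, 26.9 and 22.4 in model and did not pass the test.

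Megakaryocyte and platelet genes gave 0 calls of 19 in either direction, against 16.1% higher and 19.0% lower of all genes tested. Their median was 0.11 (4 were lower without model 1, and 1 higher without normal 3 or without model 2). Pf4, platelet factor 4, had 19.3, 16.4 and 33.9 CPM in normal and 39.3, 18.3 and 17.5 in model, so that the groups overlapped (edgeR adjusted p = 0.844). By DESeq2 with the same cutoff 1 of the 19 were called, and 1 of the 19 had an unadjusted p under 0.05 in edgeR. Selp, P-selectin of platelets and endothelium, had 3.73, 2.95 and 6.60 CPM against 13, 6.0 and 8.46 (edgeR adjusted p = 0.0526).

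Genes of vessels, stroma and bone gave smaller differences. Of 17 endothelial genes 8 rose (47.1% against 16.1%) and 0 fell, with a median of 0.87, and 1 fell without normal 1 and 2 without model 1. Adgrl4, an adhesion receptor of endothelium, had 35.4, 33.1 and 31.4 CPM in normal and 123, 94.9 and 84.2 in model (log2 fold change 1.60, edgeR adjusted p = 0.000169). Cdh5, which joins endothelial cells, had 4.17, 3.02 and 4.71 CPM against 7.63, 6.08 and 7.16 (edgeR adjusted p = 0.0281), a call lost without normal 1, normal 2, model 1 or model 3 (edgeR adjusted p from 0.0533 to 0.113). Of 22 stromal and bone-forming genes 2 rose (9.09% against 16.1%) and 4 fell (18.2% against 19.0% of all genes tested). These counts changed with the libraries, to 2, 0 and 2 lower without normal 1, 2 and 3, to 7 lower without model 1, and to 1 lower without model 2 or without model 3. In the same list 1 and 0 rose without normal 1 and 2, and 1 without model 1. Cxcl12, which holds stem cells in the marrow, had 140, 125 and 140 CPM against 120, 48.1 and 42.4, and missed the test (edgeR adjusted p = 0.0953). Cxcl12 passed without model 1 (log2 fold change -1.57, edgeR adjusted p = 0.000126). With all 6 libraries it passed by DESeq2 (-0.95, DESeq2 adjusted p = 0.0159) and with a block for the replicate number (-1.11, edgeR adjusted p = 0.0453). Col1a1, the collagen of bone, had 313 CPM in model 1 and 87.8 and 72.4 in the others, against 69.5 to 112 in normal. In the osteoclast list 4 of 10 rose (40% against 16.1%), among them the proton pump subunit Tcirg1 (log2 fold change 1.12). Acp5, the acid phosphatase of osteoclasts, was the 1 member that fell (10% against 19.0%), from 48.7, 53.7 and 62.5 CPM to 19.0, 7.61 and 12.8. Of 11 adipocyte genes 2 fell (18.2% against 19.0%) and 0 rose, with 4 lower without model 1, 1 lower without normal 1 and 1 higher without model 2.

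**Figure D4:**
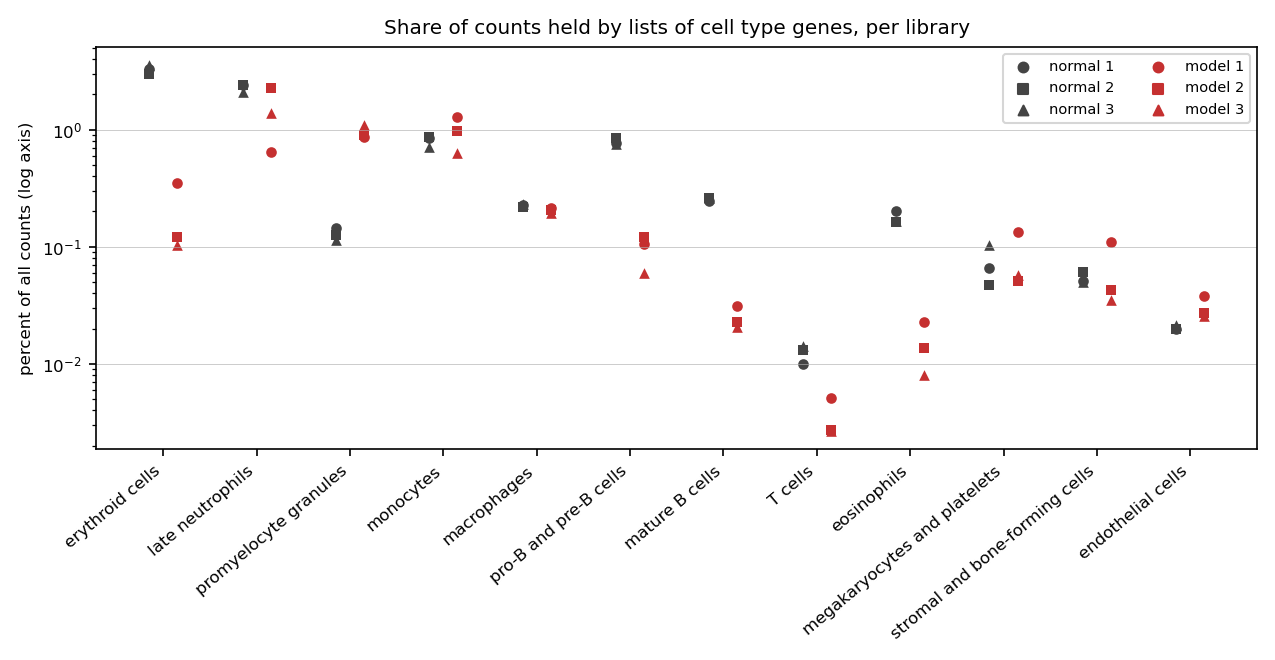
Points show the share of each library's counts that a gene list took, in percent on a log axis, for each mouse of the normal and model groups. The erythroid list falls from 3.01 to 3.55% in normal to 0.103 to 0.353% in model, and the promyelocyte granule list rises from 0.115 to 0.145% to 0.859 to 1.10%.

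Genes of cell division did not move as 1 set. Of 25 mitosis genes 7 fell (28.0% against 19.0% of all genes tested) and 0 rose, with a median of -0.35. Only 4 fell without model 1, 3 with total counts as the scale and 3 with FPKM. Of 32 DNA replication genes 4 fell (12.5% against 19.0%) and 1 rose (3.12% against 16.1%), with a median of -0.05. Only 1 fell with total counts as the scale, 0 rose without each normal mouse or model 3, and 3 rose without model 2. Mki67, which coats mitotic chromosomes, had 5080, 5260 and 5230 CPM in normal and 1650, 2250 and 2470 in model (log2 fold change -1.29 ± 0.18, edgeR adjusted p = 0.000773). Nusap1, a spindle protein, had 459, 500 and 464 CPM against 144, 192 and 174. Pcna, the sliding clamp of DNA polymerase, had 240, 239 and 180 CPM against 111, 134 and 109. Cdc45, a helicase factor, was the replication gene that rose, from 72.0, 70.7 and 61.8 CPM to 89.3, 92.9 and 137. Mcm2 did not pass the test (log2 fold change -0.31). Of 69 replication-dependent histones 47 fell (68.1% against 19.0%) and 0 rose, and they took 1.62 to 1.68% of counts in normal and 0.769 to 1.07% in model. Hist1h1b, a linker histone, had 531, 575 and 577 CPM against 255, 237 and 422 (edgeR adjusted p = 0.0117). Reads of histone genes can fit near-identical copies, so single copies are less certain than the sum.

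Among DNA damage genes, calls were about as frequent as among all genes, or less so. Of 25 p53 targets 5 rose and 5 fell (20% each, against 16.1 and 19.0% of all genes tested), with a median of 0.00 (2 rose without normal 2 and 3 without normal 3). Pmaip1, the death gene Noxa, had 14.5, 13.3 and 9.34 CPM in normal and 31.5, 41.1 and 49.0 in model (log2 fold change 1.71, edgeR adjusted p = 0.000605). Tnfrsf10b, a death receptor, had 1.49, 1.34 and 1.26 CPM against 3.37, 4.54 and 6.27. Cdkn1a, the cell cycle inhibitor p21, had 17.5, 9.56 and 11.9 CPM against 23.1, 16.6 and 23.9, so that normal 1 exceeded model 2 and the gene missed the threshold (log2 fold change 0.71, edgeR adjusted p = 0.0517). Cdkn1a was called without normal 1 (0.98, edgeR adjusted p = 0.0230) or without model 2 (0.87, edgeR adjusted p = 0.0308). With all mice kept it was also called by DESeq2 (0.70, DESeq2 adjusted p = 0.0388), with total counts (0.83, edgeR adjusted p = 0.0301) and with FPKM (0.84, limma adjusted p = 0.0324). The same held without a low-count filter, with all 12 libraries and with a replicate block (edgeR adjusted p from 0.0224 to 0.0484). It stayed uncalled with DESeq2 size factors or at least 10 counts in every library. Btg2, an antiproliferative target, fell from 274, 242 and 250 CPM to 43.5, 34.2 and 24.7. Rrm2b, a ribonucleotide reductase subunit, fell from 138, 133 and 127 CPM to 35.4, 43.0 and 35.2. Of 27 genes of crosslink repair 2 rose (1 without normal 3) and 2 fell (7.41% each, under the shares of all genes), and Fancd2 had a log2 fold change of -0.07, which did not pass. In the Bcl2 family 4 of 15 rose (26.7%) and 2 fell (13.3%, and 4 genes without model 1). Bcl2l1, a survival gene of red cell precursors among others, had 80.5, 79.5 and 85.6 CPM against 14.5, 14.4 and 17.2 (log2 fold change -2.42, edgeR adjusted p = 1.14e-05). Bak1, which opens the mitochondrial membrane in cell death, rose from 33.1, 32.1 and 32.5 CPM to 82.6, 61.6 and 114.

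Most ribosome and mitochondrial genes were not called, and those called were higher. The calls were 23 of 78 cytosolic ribosomal proteins (29.5%), 15 of 77 mitochondrial ribosomal proteins (19.5%) and 19 of 79 nuclear genes of oxidative phosphorylation (24.1%), beside 16.1% of all genes tested, with medians of 0.43, 0.34 and 0.39 and 0 called lower. The share of mitochondrial ribosomal proteins was close to that of all genes, and their count was 26 with total counts as the scale and 25 with FPKM. The mitochondrial ribosomal count was 6 without normal 1, 4 without normal 2, 23 without model 2 and, with 1 lower, 9 without model 3, and the oxidative phosphorylation count was 12 without normal 2. The medians lay below the 1.5-fold cutoff, so that a gene could have an adjusted p under 0.05 and not be called. Cytosolic ribosomal proteins took 0.935 to 1.09% of counts in normal and 1.55 to 1.61% in model. Mitochondrial ribosomal proteins took 0.135 to 0.141% in normal and 0.19 to 0.2% in model. The oxidative phosphorylation genes took 0.319 to 0.336% in normal and 0.485 to 0.493% in model. Ndufv3, of respiratory complex I, had 6.85, 5.42 and 7.09 CPM against 18.0, 23.6 and 30.8. Eef1a1, the elongation factor that brings tRNAs to the ribosome, had 1670, 1610 and 1660 CPM against 3260, 2570 and 4660 (log2 fold change 1.09). Reads of ribosomal proteins can fit processed copies elsewhere in the genome, so single genes of these lists are uncertain. Rpl26 had 198 and 276 CPM in model 1 and model 2 but 2.48 in model 3, against 1.42 to 2.88 in normal, and its call (edgeR adjusted p = 0.0278) was lost without normal 1, normal 2, normal 3 or model 1 (edgeR adjusted p from 0.0710 to 0.103). Of 13 mRNAs encoded in the mitochondria only mt-Co3 was called (7.69%, under the share of all genes, and 4 with total counts as the scale), with 2280, 2510 and 2440 CPM against 3360, 4800 and 3320 (3 were called without model 1, 2 without model 3, and 0 higher without normal 1, normal 2, normal 3 or model 2, with 1 lower without model 2).

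Most genes of glycolysis and of cholesterol synthesis rose. Of 23 glycolysis and hypoxia genes 16 rose (69.6% against 16.1%) and 1, the glucose transporter Slc2a3, fell (0 fell without normal 3, and 2 without model 2 or without model 3). Ldha, lactate dehydrogenase, had 170, 163 and 156 CPM in normal and 317, 333 and 364 in model (log2 fold change 1.06, edgeR adjusted p = 0.000214). Eno1, enolase, had 56.9, 56.3 and 59.1 CPM against 160, 158 and 225. Hk2, the first enzyme of the pathway, rose by 0.87 on the log2 scale. Of 22 cholesterol synthesis genes 13 rose (59.1%) and 0 fell. Hmgcs1, which makes the precursor of mevalonate, had 34.9, 35.0 and 33.9 CPM against 61.9, 72.3 and 82.2 (log2 fold change 1.06 ± 0.14, edgeR adjusted p = 0.00063), and Fdps, a later enzyme, had 13, 11.8 and 12.3 CPM against 45.2, 58.3 and 84.2. In both genes the groups were apart. Sqle, squalene epoxidase, missed the cutoff at a log2 fold change of 0.56.

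Some fast-response genes fell, and glucocorticoid-responsive genes were mixed. Of 14 immediate early genes 7 fell (50% against 19.0%) and 0 rose. Egr1, a factor induced within minutes of a stimulus, had 7.38, 8.02 and 5.83 CPM in normal and 0.887, 0.732 and 0.946 in model. Klf2, a factor of quiescent lymphocytes and endothelium, had 37.7, 36.3 and 34.8 CPM against 7.57, 7.76 and 10.0, while Fos did not pass the test (log2 fold change -0.05). Of 13 genes that glucocorticoids induce 5 rose (38.5% against 16.1%, and 3 genes with any 1 of the normal mice left out) and 2 fell (15.4% against 19.0%). Fkbp5, a chaperone of the glucocorticoid receptor, had 84.5, 96.7 and 118 CPM against 251, 179 and 211 (log2 fold change 1.10 ± 0.17, edgeR adjusted p = 0.00143), and Mt1, a metallothionein, had 4.92, 5.70 and 5.90 CPM against 22.6, 33.2 and 57.3.

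Interferon-stimulated genes also divided. Of 30 tested, 9 fell (30.0% against 19.0%) and 4 rose (13.3% against 16.1%, and 7 genes without model 3), with a median of -0.34. Isg15 (ENSMUSG00000035692), a ubiquitin-like protein, had 5.74, 7.67 and 7.38 CPM in normal and 0.532, 0.586 and 0.651 in model (log2 fold change -3.54 ± 0.29, edgeR adjusted p = 6.07e-05). Rsad2, the antiviral enzyme viperin, had 257, 262 and 274 CPM against 22.4, 3.08 and 3.55. Ifit1, which binds foreign RNA, fell by 1.65 on the log2 scale (edgeR adjusted p = 0.0191), but not without normal 2 or normal 3 (edgeR adjusted p of 0.0692 and 0.0571). In the other direction Oas1a, a sensor of double-stranded RNA, rose from 3.58, 2.67 and 2.25 CPM to 9.58, 8.49 and 10.8, and Ifitm3, which blocks viral entry, from 34.4, 28.2 and 32.6 CPM to 78.3, 92.4 and 146. Opposite directions within the list were also seen among genes with the same promoter letters. The interferon response element holds TTTC, any 2 bases and TTTC again, and these letters stood on either strand within 250 bases before the start of 12 of 22 genes of the list (54.5%) against 3.04% of all 27025 promoters. The 150 bases before the start are shown for Isg15 (chr4:156200819-156200968, minus strand) and Ifit1 (chr19:34640739-34640888, plus strand), which fell, and for Oas1a (chr5:120907526-120907675, minus strand), which rose, with all matches in capitals.
Isg15: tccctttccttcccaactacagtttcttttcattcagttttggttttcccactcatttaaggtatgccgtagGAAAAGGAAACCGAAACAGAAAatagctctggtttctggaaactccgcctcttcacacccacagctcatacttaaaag
Ifit1: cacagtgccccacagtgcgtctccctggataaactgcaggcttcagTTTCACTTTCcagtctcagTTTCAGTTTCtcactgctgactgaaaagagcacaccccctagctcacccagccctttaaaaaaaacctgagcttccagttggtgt
Oas1a: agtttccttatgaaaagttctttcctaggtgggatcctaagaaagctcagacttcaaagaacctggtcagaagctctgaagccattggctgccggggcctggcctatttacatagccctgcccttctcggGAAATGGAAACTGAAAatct
The stretches hold 3, 2 and 2 matches in that order, overlapping in Isg15 and Oas1a, where they read on the opposite strand. ACGTG, the core of the hypoxia response element, stood before 10 of 22 glycolysis and hypoxia genes (45.5%) against 16.6% of all promoters. These letters were not particular to that list. They stood before larger shares of plasma cell genes (5 of 8) and glucocorticoid-responsive genes (6 of 10). The other lists with promoters had smaller shares.

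Of 17 acute phase and complement genes 7 rose (41.2% against 16.1%) and 2 fell (11.8% against 19.0%). In this list 0 were lower without normal 1 or normal 3, and 1 was lower without each other library. Saa3, an inflammatory serum amyloid, had 0, 0 and 1 counts in normal and 359, 1017 and 684 in model, a ratio of group CPM of 1820 with a 95% counting interval of 326 to 71900. C3, the central complement protein, had 608, 626 and 616 CPM against 834, 980 and 1770 (log2 fold change 0.95 ± 0.26, edgeR adjusted p = 0.0206). The call of C3 was lost without normal 1, normal 2 or normal 3 (edgeR adjusted p from 0.0610 to 0.0685) and without model 3 (log2 fold change 0.56).

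Of 20 cytokine genes 8 fell (40% against 19.0% of all genes tested) and 1 rose (5% against 16.1%). The counts lower were 4 without normal 1 and 5 without normal 2, and 2 rose without model 1 or without model 2. Il1b, interleukin 1 beta, had 32.0, 44.0 and 23.4 CPM in normal and 1.06, 1.61 and 0.592 in model (log2 fold change -4.94, edgeR adjusted p = 4.93e-05). Il6 had 1.19, 1.69 and 1.33 CPM against 0.0591, 0.293 and 0.296 (edgeR adjusted p = 0.00449). Tnfsf13b, the B cell survival factor BAFF, had 15.5, 12.4 and 14.8 CPM against 2.13, 2.56 and 1.66. Vegfa, the endothelial growth factor, was the member that rose, from 11.9, 11 and 9.69 CPM to 16.9, 23.2 and 36.7. Csf3, the gene of G-CSF, had 0 counts in all 6 libraries. Among 10 chemokines Ccl9 rose (10% against 16.1%, and 2 genes without normal 3 or without model 1). Ccl5 and Ccl3 fell (20% against 19.0%, and 5 genes by DESeq2), with Ccl5 at 1.49, 2.18 and 2.46 CPM in normal and 0, 0.293 and 0 in model.

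Genes of leukotriene and phosphatidylcholine metabolism, which the study took up, moved in both directions, with 5 of 20 higher (25% against 16.1% of all genes tested) and 8 lower (40% against 19.0%). Cyp4f18, which degrades leukotriene B4, had 44.7, 50.6 and 50.9 CPM in normal and 5.97, 11.8 and 8.75 in model (log2 fold change -2.47 ± 0.24, edgeR adjusted p = 0.000122). Alox5, which starts leukotriene synthesis, had 82.5, 93.0 and 87.4 CPM against 20.3, 49.1 and 49.6. Its call (log2 fold change -1.15, edgeR adjusted p = 0.0221) was lost without normal 1, normal 2 or normal 3 (edgeR adjusted p from 0.0530 to 0.0672). Lta4h, which makes leukotriene B4, went the other way, from 178, 149 and 156 CPM to 350, 390 and 504, and Alox5ap, the helper protein of Alox5, rose by 0.92 on the log2 scale. Ggt5, which converts leukotriene C4, had 18.6, 14.3 and 13.4 CPM against 7.45, 10.4 and 7.93 (edgeR adjusted p = 0.0129, and 0.0630 without normal 1). Phospho1, a phosphocholine phosphatase, had 11.8, 11 and 10.4 CPM against 1.60, 1.98 and 2.13. The rate-limiting enzymes of phosphatidylcholine synthesis differed in their values. Pcyt1b had 44.4, 43.1 and 46.9 CPM against 5.14, 2.64 and 2.31, whereas Pcyt1a had 137, 125 and 68.6 CPM against 42.6, 38.6 and 100 and did not pass the test (edgeR adjusted p = 0.158, and 0.0129 without model 3). By DESeq2 on all 6 libraries Pcyt1a was called lower (log2 fold change -0.87, DESeq2 adjusted p = 0.0484). The study also measured Ggt5, Cyp4f18, Pcyt1a, Alox5 and Phospho1 by RT-qPCR in marrow cells, normalized to GAPDH. It reported each as significantly lower in model than in normal.

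The other genes that the study names for its transcriptome were mostly lower. Ets1, a lymphoid factor, had 95.1, 101 and 110 CPM in normal and 28.3, 32.2 and 32.5 in model. Il7r, the receptor that B cell precursors need, had 284, 272 and 270 CPM against 38.2, 21.5 and 9.40. Dpp4, a surface peptidase of leucocytes, fell by 2.18, Hdc, which makes histamine, by 1.25 and Ndst1, a heparan sulfate enzyme, by 0.61 on the log2 scale. The call of Ndst1 was lost without normal 2 or without model 1, each at a log2 fold change of -0.57. Jun had 27.3, 14.8 and 8.57 CPM against 5.74, 4.98 and 8.10, and its call (edgeR adjusted p = 0.0270) was lost without normal 1, normal 2, model 1 or model 2 (edgeR adjusted p from 0.0545 to 0.0963). Itgam, Il18 and Atp6v1g2 had log2 fold changes of -0.46, -0.80 and -0.06 and did not pass. Il18 passed without model 1 (edgeR adjusted p = 0.0234) and by DESeq2 on all 6 libraries (log2 fold change -0.81, DESeq2 adjusted p = 0.0393). Atp6v1c2 and Atp2b2 had too few counts to test, at most 12 in a library. These genes were chosen by the study on the libraries of this series, so their directions are no independent evidence.

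Drug handling genes changed in both directions. Of 22 tested 7 rose (31.8% against 16.1% of all genes tested) and 6 fell (27.3% against 19.0%). Aldh1a1 (ENSMUSG00000053279, chr19:20601961-20643462), an aldehyde dehydrogenase that breaks down the active form of cyclophosphamide, had 185, 191 and 166 CPM in normal and 7.51, 3.15 and 2.43 in model (log2 fold change -5.36 ± 0.41, edgeR adjusted p = 9.70e-05). Gstm1, a glutathione transferase, rose from 28.5, 26.3 and 21.8 CPM to 193, 189 and 358. The exporter Abcg2 fell from 173, 179 and 172 CPM to 36.0, 28.3 and 18.6, and the exporter Abcc4 rose from 74.1, 67.3 and 75.9 CPM to 200, 192 and 264. Targets of NRF2, the factor of the oxidative stress response, had 3 higher (15%) and 7 lower (35%) of 20. Prdx2, a peroxiredoxin abundant in red cells, had 436, 417 and 421 CPM against 85.3, 48.2 and 59.8, and Gsr, glutathione reductase, had 91.3, 78.1 and 93.4 CPM against 236, 265 and 368.

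The largest falls with groups apart were led by B cell genes. The 10 were Ms4a1, Alox15, Cacna1i, Cr2, Fcmr, Fcer2a, Klhl14, Sh2d4a, Egfl6 and Acmsd, with at most 10 counts in the whole model group. Cr2, the complement receptor of B cells, had 1476, 1591 and 1080 counts in normal and 5, 1 and 1 in model, a 671-fold lower level with a 95% counting interval of 325 to 1670. Fcer2a, the low-affinity IgE receptor, had 356, 513 and 458 counts against 1, 0 and 2, or 501-fold with an interval of 171 to 2430. Acmsd, an enzyme of tryptophan breakdown, had 231, 255 and 225 counts against 3, 1 and 0, or 201-fold with an interval of 78.2 to 741. These intervals cover counting error only, not the spread between mice.

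The 10 largest rises were of other kinds, Saa3, Gpnmb, Cfb, Lipg, Rbm12b2, Tctex1d1, Clmn, Dmkn, Ctsg and Dpep2. Lipg, endothelial lipase, had 1.56, 1.2 and 2.11 CPM in normal and 14.5, 87.9 and 158 in model (log2 fold change 5.73 ± 1.00, edgeR adjusted p = 0.00600), an order of the model mice opposite to that of the B cell genes. Clmn, a calponin-like membrane protein, had 0.224, 0.633 and 0.492 CPM against 6.33, 7.98 and 10.2. Dpep2, a dipeptidase that acts on leukotriene D4, had 2.24, 1.05 and 1.97 CPM against 22.9, 22.1 and 16.2. In CPM, the largest falls beside the globins Hbb-bs and Hba-a1 and the division gene Mki67 were those of Malat1, a nuclear noncoding RNA, from 19200, 19300 and 19600 to 8310, 10700 and 8680, and Cd24a, a surface protein of B cell and red cell precursors, from 5440, 6290 and 5260 to 532, 1010 and 525. The largest rises in CPM were Gm26917, Mpo, Eef1a1, Gm42418 and Ctsg. Gm26917 had 21900, 16200 and 20100 CPM against 41600, 28800 and 48900 and lost its call without normal 2 (edgeR adjusted p = 0.0551), as did Gm42418 (edgeR adjusted p = 0.0579).

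Genes that laboratories use as references in quantitative PCR were not all steady. Of 15 tested 6 rose (40% against 16.1%) and 3 fell (20% against 19.0%). Gapdh had 20.9, 19.7 and 16.4 CPM in normal and 35.1, 43.0 and 43.9 in model (log2 fold change 1.10 ± 0.16, edgeR adjusted p = 0.00101). Gusb rose from 54.7, 49.7 and 49.4 CPM to 166, 139 and 196. Actb, with 2710, 2760 and 1430 CPM against 2690, 2510 and 4590, and Tbp, with a log2 fold change of 0.00, did not pass the test. Gapdh lay far below Actb in CPM in each library. How reads that match several places in the genome were counted is not given in the sources used here, so the Gapdh values are uncertain.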

How the data were processed

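The authors extracted total RNA of femoral marrow, removed ribosomal RNA, made strand-specific libraries and mapped the reads to mm10, the GRCm38 build, with HISAT2. The program that counted reads per gene, its strand setting and the annotation version are not given in the sources used here. The deposited table holds, for 34745 genes, read counts without normalization and FPKM, which the authors scaled to transcript length and mapped fragments. All 12 count columns and 12 FPKM columns were assigned, and 0 were left unused. The heading Blank was read as the normal group by its meaning, since the labels do not use the word. Positive and Stilbene1 are likewise absent from the labels, so that the leucogen and QJSB libraries, used in the fit to all 12 libraries and in some further values, rest on the sense of the headings and on elimination.

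Counts of the 6 libraries were tested with edgeR 4.0.16 in R 4.3.3 (TMM, filterByExpr, robust quasi-likelihood fit), with Benjamini-Hochberg adjustment over the 14752 genes kept. CPM used TMM library sizes, and log2 CPM a prior count of 2. Gene lists (42, hand-written) were described by counts of calls and medians, without a test, and their shares of counts by exact permutation tests. Members and lists were chosen with earlier results of these data known. Named genes were the key genes of each list, the 10 largest rises and falls among called genes with groups apart and a mean normalized count of at least 50 (unnamed gene models and receptor segments passed over), the 5 largest rises and falls in CPM, the genes that the study names, and the 5 of largest SD in model. Further list members were picked as examples after their values were seen. Some named genes are not reported here. Promoters and their starts came from RefSeq (GRCm38.p6). Of 14 motifs searched on both strands within 250 bases before the start, 3 are given, chosen after their shares were seen. The other motifs were those of KLF factors (CCNCNCCC), SREBP (TCACNCCAC and, overlapping it in part, CACCCCAC), NF-Y (ATTGG), CREB (TGACGTCA), octamer factors (ATTTGCAT), NRF2 (TGACNNNGC), AP-1 (TGACTCA), the E-box (CACGTG, which holds ACGTG), C/EBP (TTGCGCAA) and the serum response element.

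Library totals give the depth, and counting intervals (95%, exact binomial) cover counting error only. Alternatives were DESeq2 1.42.0, its size factors, scaling to total counts, a fit without the filter on low counts, a minimum of 10 counts per library, a fit to all 12 libraries, a block for the replicate number, limma 3.58.1 on log2(FPKM + 0.1), and each library left out. The tests were tried on simulated data first.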

Additional observations from a re-analysis of the deposited data

How the results depend on the processing

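The number of genes called, 5171, lay between 4279 (at least 10 counts in every library) and 5629 (limma on FPKM) over the alternatives with all 6 libraries, and DESeq2 called 5421. With a library left out it ranged from 4136 to 5436. Total counts in place of TMM moved the share of calls that were higher from 45.8 to 56.3%, and FPKM gave 2953 higher and 2676 lower. The median of plasma cell genes went from -3.27 to 0.00 with at least 10 counts in every library, a filter that leaves fewer of its genes. The median of adipocyte genes turned from -0.36 to 0.33 with DESeq2, to 0.35 without a filter and to 0.05 with FPKM. The main test kept 11 of the 15 adipocyte genes. These alternatives kept more genes in all, 21882, 21882 and 16656 in that order against 14752, so that their medians can rest on other members. The part of the added genes in the turn was not tested. Of the values of named genes under the alternatives, 1617 kept their side of the threshold, 89 lost the call and 32 gained it. Of the counts of calls within lists, 132 moved by more than 1.5 times and 1044 did not.

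Deviations from the group means of same-numbered normal and model libraries had correlations of -0.00066, 0.0247 and -0.0541. Those of differently numbered libraries ran from -0.0803 to 0.0707. With 3 mice per group these values cannot show whether the numbers pair the mice. With a block for the replicate number, 4925 genes were called, 2202 higher and 2723 lower, of which 4799 were also called without it. At 3 mice per group, genes with a large spread among model mice, such as globins and Rag1, sit near the threshold, and genes with a few counts give wide intervals.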

Other observations

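Some genes switched between near 0 and high counts among mice of the same group. Within normal 21 genes, and within model 21, were at least 20-fold apart with at least 100 counts in the highest library, and 3 did so in both groups. These genes were picked after their values were seen. Hmgb1-ps8, Gm26740 and C920009B18Rik, neighbours on chromosome 10 between positions 22187013 and 22321765, had 0 or 1 counts together in normal 2 and model 3. Gm26740 had 443, 0 and 443 counts in normal and 226, 587 and 0 in model. In the libraries read as leucogen and QJSB from headings that the labels do not use, the same genes were at 0 in leucogen 1, leucogen 3, QJSB 1 and QJSB 2, while Gm26740 had 425 counts in leucogen 2 and 465 in QJSB 3.

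Rbm12b2, among the 10 largest rises, had 26, 17 and 13 counts in normal and 818, 689 and 740 in model. Its paralog on the same chromosome, Rbm12b1, had 45, 380 and 370 counts in normal and 463, 372 and 307 in model. How reads that match both genes were counted is not given in the sources used here. In QJSB 2 both were low, with 14 counts of Rbm12b2 and 21 of Rbm12b1.

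A gene model named Umad1 (ENSMUSG00000107705) held 3702 counts in normal 1 and 0 in each of the other 11 libraries. It overlaps Glcci1 on chromosome 6, which had 1137 counts in normal 1 against 4577 and 4609 in the other normal mice and 249 to 309 in model. Gm9752 held 275 counts in model 2 and 0 elsewhere.

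Skeletal muscle genes were high in normal 3. Ttn, the giant spring protein of muscle, had 78, 163 and 6030 counts in normal and 703, 2667 and 1035 in model. Ckm, muscle creatine kinase, had 8, 6 and 430 counts in normal and 37, 203 and 62 in model. Their part in the other results was not tested. Hist2h2aa2 had 71 counts in model 2 against 2416 and 4318 in the other model mice.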
